A study of Mus musculus with 36 samples.

Results

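The respiratory chain subunits encoded in the nucleus were followed in 36 libraries from mouse brain. The members were the genes of the deposited count table whose names begin with Ndufa, Ndufb, Ndufc, Ndufs or Ndufv and a digit, Cox4 to Cox8, Uqcr or Atp5, together with Sdha, Sdhb, Sdhc and Sdhd, and they made up 85 of 16614 genes in the table. They comprised 36 genes of complex I, 4 of complex II, 8 of complex III, 19 of complex IV (with Ndufa4 and Ndufa4l2 counted there) and 18 of complex V, and Atp5o was listed under 2 gene identifiers. The study isolated ribosome-protected fragments (RPFs), the pieces of mRNA that ribosomes shield from nuclease, after spinning whole-brain homogenate through sucrose gradients and taking the pellet and fraction 5/6, and sequenced total RNA of the homogenate beside them. The mice were WT C57BL/6 mice or FMR1 KO mice at postnatal day 5, and each preparation pooled 10 brains. Both genotypes were prepared in a standard way (10 mM MgCl2, high nuclease, room temperature) and with low nuclease (2.5 mM MgCl2, 4°C), with 3 libraries for each of the 12 combinations of genotype, material and preparation. The RPFs of a group were pooled once linkers with barcodes had been attached, and reverse transcription, rRNA depletion and PCR were then done on that pool, so that pool and group cannot be told apart. The p-values measure the spread between these libraries, which may be partly technical. Nuclease dose, the RNase I product, MgCl2, temperature and the way monosomes were recovered changed together between the preparations and cannot be told apart.

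The respiratory chain sits in the inner mitochondrial membrane. Complex I (the Nduf proteins) takes electrons from NADH, complex II (the Sdh proteins) takes them from succinate in the citric acid cycle, complex III (Uqcr) passes them to cytochrome c, complex IV (Cox) hands them to oxygen, and complex V (Atp5) uses the proton gradient so built to make ATP. Complexes I, III, IV and V also hold subunits encoded in the mitochondrion, so that proteins made on cytosolic and on mitochondrial ribosomes must meet in fixed proportions. Neurons depend on this pathway for most of their ATP. Many of the nuclear-encoded subunits are very small proteins, and several have numerous processed pseudogenes.

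Short coding sequences with copies elsewhere in the genome bear on RPF counts, since an RPF is about as long as the 30 nt words used to check this. Of the 84 members with a coding sequence, 40 (47.6%) had fewer than 90% of their coding 30 nt words unique in the genome, against 14% of 16559 genes with a coding sequence. For 6 members none of these words was unique, and their values are uncertain because the counting could have discarded their fragments or given them to a copy. They are Atp5g1, Atp5g2, Atp5l, Atp5md, Cox7c and Ndufb4. The 27 nt around the middle codon of 5 of them is shown to make this concrete, 5′ to 3′ on the coding strand with the middle codon in capitals, and Ndufs1, whose coding words were 97.9% unique, is shown for comparison.
Atp5g1: gacacagcagccAAGttcattggtgct
Atp5g2: atttcaagggacATCgacacagctgcc
Atp5l: acagctattcagAGTgtgaaaaaaatc
Atp5md: acaggtagaatgAATtgtgtcctggcc
Ndufb4: gaggatcctgccTTGattcgctggacc
Ndufs1: aaagttgactctGACaacttatgcact
In GRCm38 these stretches lie on the minus strand at chr11:96073603-96073629 (Atp5g1), chr15:102665149-102665175 (Atp5g2), chr9:44914696-44914722 (Atp5l), chr16:37649134-37649160 (Ndufb4) and chr1:63157161-63157187 (Ndufs1), each within a coding exon. The Atp5md stretch (the gene is called Usmg5 in GENCODE M21) crosses an exon junction on chromosome 19, between positions 47086036 and 47086148. Exact copies in the genome numbered 5 for the Atp5l stretch, 4 for Atp5g2, 3 each for Atp5g1 and Ndufb4, and 1 for Ndufs1, which was the gene itself. The spliced Atp5md stretch had 1 exact copy, which lies outside its own exons. Atp5g1 and Atp5g2 encode the c-ring protein of ATP synthase, Atp5l and Atp5md small membrane subunits of the same enzyme, Cox7c a small subunit of complex IV and Ndufb4 an accessory subunit of complex I.

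Depth differed between kinds of library. Standard RPF libraries held 6765065 to 40174168 counts (4284209 to 21274803 once Cdk8, which took 36.7 to 63.4% of them, was left out), low nuclease RPF libraries 23634940 to 62310787, and RNA-seq libraries 112249206 to 147216378 in the standard and 41586791 to 141505786 in the low nuclease preparation. The FMR1 KO was checked at Fmr1: its RPF level was 73.7 to 87.5 CPM (counts scaled to library size and TMM factor) in WT pellets and 5.33 to 8.44 in all 6 standard FMR1 KO RPF libraries. The library labelled WT fraction 5/6 replicate 3 went against its label with 3.63, beside 111.9 and 116.5 in replicates 1 and 2, so counts of called members that use it are also given without it. Its summed member level was 8997 CPM, near the 9081 to 9599 of WT pellets and under the 11253 and 11512 of replicates 1 and 2. Whether its fraction label holds was not tested. FMR1 KO pellet replicate 2 was also treated as doubtful, and 1 added fit of pellet over fraction 5/6 between genotypes left out both. In the low nuclease RNA-seq, WT replicate 2 and FMR1 KO replicates 2 and 3 had 81.5 to 85.0% of their counts on 10 genes. All 6 neuron markers were detected in the standard libraries, at a summed 4266 to 5084 CPM in RNA-seq and 9170 to 11129 in RPFs, and the 4 blood globin genes summed to 133.3 to 311 in RNA-seq and 4.28 to 15.6 in RPFs. Heart and skeletal muscle markers summed to 8.68 to 12.5 in RNA-seq but reached 437.8 in 1 WT pellet and 211.6 in 1 FMR1 KO pellet library. Their part in the results was not tested.

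Whether the members held more of the RPFs or of the RNA turned with the scaling. Their summed level (CPM after TMM normalization over all 36 libraries) was 6550, 6013 and 5764 in the WT RNA-seq libraries, 9262, 9599 and 9081 in the WT pellets, and 11253, 11512 and 8997 in WT fraction 5/6, of which the last was the library labelled WT fraction 5/6 replicate 3. The FMR1 KO sums were 6098, 6554 and 5775 for RNA-seq, 8943, 9561 and 9320 for the pellets, and 10266, 11032 and 10368 for fraction 5/6. After TMM every RPF library of the standard preparation lay above every RNA-seq library, while WT and FMR1 KO libraries of the same material overlapped. As plain CPM (no TMM factors, Cdk8 left out), which is a share of the library, the sums were 11021, 9912 and 10029 in WT RNA-seq and 7348, 8740 and 6700 in WT pellets, and 10035, 10293 and 9746 against 7458, 6005 and 8397 in FMR1 KO mice. On that scale 10 of the 12 standard RPF libraries lay below every standard RNA-seq library, 1 lay among them and 1, FMR1 KO fraction 5/6 replicate 3, lay above them at 13188. Since these are bulk samples, fewer cells of a type and less RNA per cell cannot be told apart.

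The complexes differed in how their sums compared between pellets and RNA-seq. After TMM, complex II, which has no mitochondrially encoded subunit, went from a summed 312.4 ± 5.37 in WT RNA-seq to 693.6 ± 10.7 in WT pellets (SD, n = 3 each). The sum of complex III went from 579.6 ± 17.3 to 1090 ± 15.2, complex V from 2742 ± 105.3 to 4841 ± 49.6, and complex I from 1452 ± 119 to 2131 ± 132.9. Complex IV went from 1023 ± 171.2 to 558 ± 97.1, the one sum that was lower in the pellets on this scale. No standard pellet library overlapped an RNA-seq library for any of the 5 complexes in WT mice. The complex IV sum of FMR1 KO mice was 994.8 ± 101.3 in RNA-seq and 531.5 ± 45.1 in pellets, again without overlap. By plain CPM complexes I (2453 ± 182.4 to 1743 ± 300.4), III (979.5 ± 26.8 to 887.3 ± 100.8) and V (4632 ± 113.7 to 3942 ± 449.4) also had lower means in WT pellets, complex II went from 527.9 ± 11.3 to 564.6 ± 63.7, and complex IV went from 1728 ± 283.6 to 459.9 ± 131.

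Per kb of coding sequence, ATP synthase stood at the top of the WT pellet. The α and β subunits of its catalytic head came first, at 989.9 ± 53.9 normalized CPM per kb (RPKM) for Atp5a1 and 987.2 ± 22.95 for Atp5b. The pair did not differ beyond its spread, and the head contains both proteins in equal number. Atp5g3, a gene for the proton-carrying c-ring, followed at 720.3 ± 156.2, then Ndufa4, a complex IV subunit, at 350.1 ± 53.55 and Uqcrc2, a core protein of complex III, at 300.4 ± 21.2, the last pair overlapping in their spread. At the other end of the 83 members with at least 10 counts in every standard RNA-seq library stood Ndufb4 at 1.51 ± 0.711, Cox4i2 at 1.07 ± 0.406, Cox5b-ps at 0.724 ± 0.136, Cox7a1 at 0.516 ± 0.369 and Atp5l at 0.478 ± 0.439. These 5 overlapped with their neighbours in that order. Ndufb4 and Atp5l are among the genes with no unique coding words, and Cox4i2 and Cox7a1 are isoforms known from lung and from heart and muscle, respectively.

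Occupancy, the level of RPFs in the pellet over RNA-seq, asks how much ribosome footprint an mRNA had for its amount. In WT mice 26 members rose and 36 fell of 84 tested (edgeR's quasi-likelihood test, p adjusted by Benjamini-Hochberg over 16200 genes and under 0.05), which is 31% and 42.9%. Over all genes tested 65.3% were called, 31.1% higher and 34.2% lower, so that the members' share of rises was that of the background and their share of falls somewhat above it. Their median log2 fold change was -0.29, against -0.10 over all genes tested. In FMR1 KO mice 25 rose and 42 fell of 84, with a median of -0.40 against -0.07, and 66.9% of all genes were called (31.8% higher, 35.2% lower). The fits scale libraries by TMM, and scaling by library size alone shifted the median of all genes by -1.15 in WT and -1.10 in FMR1 KO mice. Under that scaling 8 members rose and 61 fell in WT mice, and 4 rose and 61 fell in FMR1 KO mice, where 8.74% of all genes rose and 67.6% fell in WT and 7.93% and 62% in FMR1 KO mice. Before the shift is subtracted 13 of the 62 WT calls and 12 of the 67 FMR1 KO calls changed sign, and none did relative to the median of all genes.

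Apart from Cox7b2, the members that rose most were large catalytic or core subunits. Ndufs1, the iron-sulfur subunit of complex I with the longest coding sequence of the members (727 codons; chr1:63143596-63176833, GRCm38), had 46.6, 54.0 and 56.7 CPM in WT RNA-seq and 326.6, 299.3 and 374.6 in WT pellets. All 3 pellet libraries lay far above the RNA-seq libraries, and occupancy was 6.79-fold (log2 2.76 ± 0.14 SE, edgeR's adjusted p = 7.07e-06). FMR1 KO RNA-seq libraries gave 56.3, 59.1 and 60.3 and the pellets 369.3, 305.7 and 349.5, a log2 occupancy of 2.59. Sdha, the flavoprotein that oxidizes succinate in complex II, had 89.8, 101.9 and 109.5 in WT RNA-seq and 392.3, 380.1 and 444.5 in WT pellets, and its log2 occupancy was 2.11 in WT and 1.92 in FMR1 KO mice. Uqcrc2, a core protein of complex III, rose by 2.16 and 1.91 (91.4, 96.05 and 105.4 in WT RNA-seq against 394.0, 391.1 and 442.6 in WT pellets). An antisense gene overlaps 19.8% of its exonic sequence, and whether the counting used strand is not given in the sources used here.

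Other catalytic subunits rose as well. Complex I contributed Ndufv1, which binds NADH and FMN (1.57 in WT). Complex III contributed Uqcrc1, its other core protein (1.61), and Uqcrfs1, the Rieske iron-sulfur protein (1.32), and complex II contributed its iron-sulfur subunit Sdhb (0.92). In complex V the head subunits Atp5a1 (1.89) and Atp5b (1.32) rose: Atp5b had 628.9, 703.4 and 685.7 CPM in WT RNA-seq and 1600, 1529 and 1579 in WT pellets. The catalytic subunits of complex IV are encoded in the mitochondrion and are not members. Of its nuclear-encoded subunits, Cox4i1 and Cox5a did not pass the test in WT mice. Cox4i1, the ubiquitous regulatory subunit IV, had 178.1, 136.1 and 149.7 in WT RNA-seq against 131.8, 157.1 and 125.8 in WT pellets (log2 -0.06 ± 0.16 SE, edgeR's adjusted p = 0.741), and Cox5a had a log2 occupancy of -0.11 (0.555). Pellet and RNA-seq libraries overlapped for both genes.

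**Figure D1:**
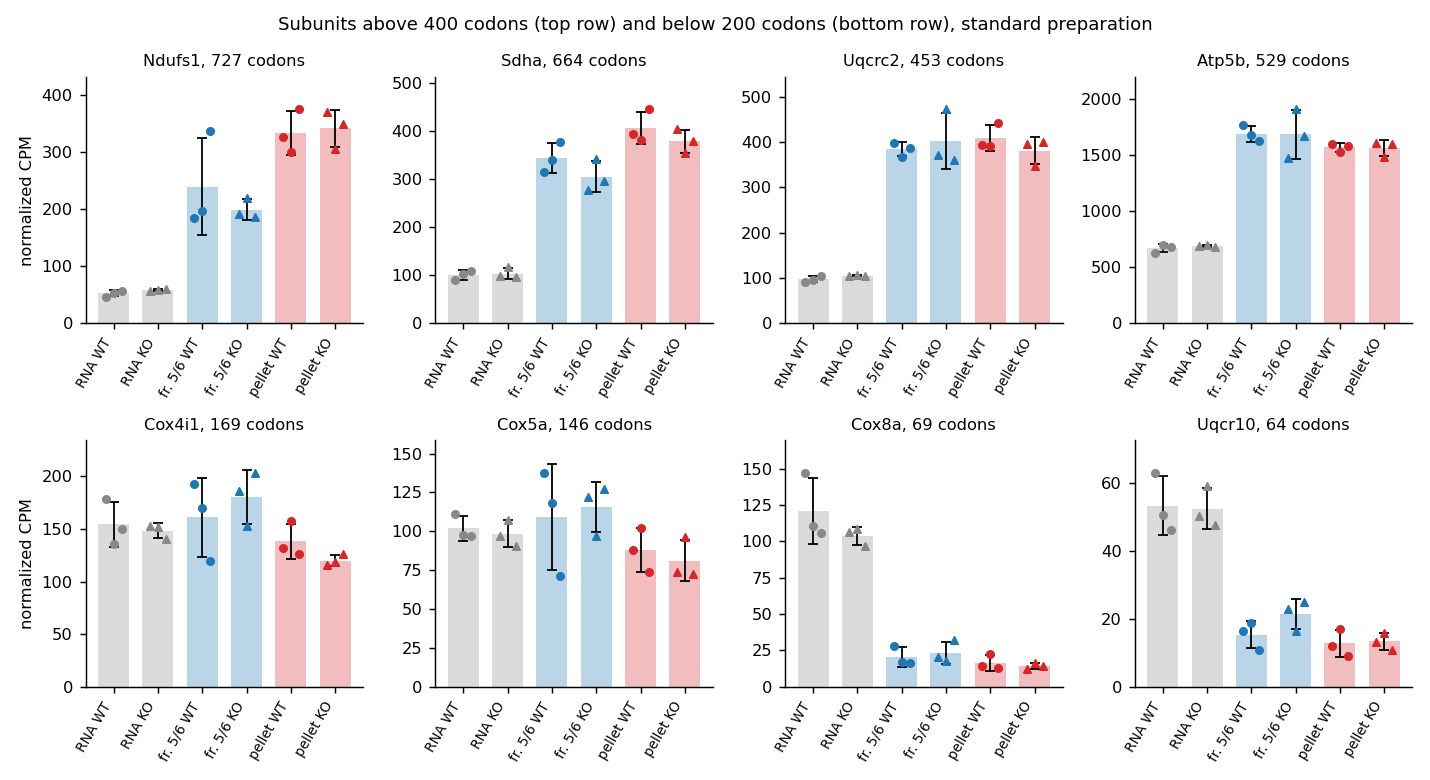
Levels of 8 members in the 18 standard libraries, as CPM after TMM normalization (vertical axes start at 0). Points are libraries (circles WT, triangles FMR1 KO), bars their means and error bars the SD of 3 libraries; the 4 subunits above 400 codons (top) have higher RPF than RNA-seq levels, Cox4i1 and Cox5a overlap between pellet and RNA-seq in WT mice, and Cox8a and Uqcr10 are lower in every RPF library than in RNA-seq.

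By complex, WT occupancy rose for 12 and fell for 10 of 35 tested members of complex I, rose for 3 and fell for none of 4 in complex II, and rose for 3 and fell for 5 of 8 in complex III. Complex IV had 2 rises and 11 falls of 19, and complex V had 6 rises and 10 falls of 18. The FMR1 KO counts were 12 and 16 for complex I, 3 and 0 for complex II, 3 and 5 for complex III, 1 and 12 for complex IV, and 6 and 9 for complex V. Over all genes tested 31.1% were higher and 34.2% lower in WT mice, and 31.8% and 35.2% in FMR1 KO mice. Within complex III the split ran by size of the protein: Uqcrc1, Uqcrc2 and Uqcrfs1 rose, and the 5 small subunits fell, Uqcr11 by 2.31, Uqcr10 by 1.96, Uqcrh by 1.63, Uqcrb by 1.47 and Uqcrq by 0.90 on the log2 scale. Of the coding words of these 5 genes 41.55%, 84.3%, 63.1%, 9.12% and 100% were unique, in the same order.

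The largest falls were found for Atp5l, Cox7a2l and Ndufb4 in both genotypes. Cox7a2l, which helps complexes III and IV to join into supercomplexes (111 codons; chr17:83501918-83517330, GRCm38), had 115.7, 77.3 and 69.2 CPM in WT RNA-seq and 4.56, 7.01 and 3.98 in WT pellets, 15.7-fold lower (log2 -3.97, edgeR's adjusted p = 2.78e-05). Only 18.6% of its coding words were unique. Atp5l had 13424, 13478 and 8670 RNA-seq counts but 3, 3 and 0 counts in the WT pellets (log2 -8.35), and Ndufb4 had 24 counts over the 3 WT pellets (15, 6 and 3; log2 -3.90). Atp5l and Ndufb4 have no unique coding words, so these values do not measure their footprints reliably. Cox8a, a complex IV subunit of 69 codons with 72.4% unique words, had 147.2, 110.8 and 105.5 in WT RNA-seq and 13.9, 22.3 and 12.6 in WT pellets, and fell by 2.79 in WT and 2.81 in FMR1 KO mice.

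Cox7b2 had the largest rise in both genotypes. This paralog of the complex IV gene Cox7b (82 codons, all coding words unique; chr5:71442824-71548205, GRCm38) is known as a testis isoform. It had 0.18, 0.105 and 0.150 CPM in WT RNA-seq, 3.73, 4.85 and 0.568 in WT pellets and 6.92, 9.15 and 6.31 in FMR1 KO pellets, and its log2 occupancy was 4.53 (edgeR's adjusted p = 7.12e-04) in WT and 6.21 (9.48e-06) in FMR1 KO mice. In WT fraction 5/6 it had 24.15, 52.9 and 0.0930, the last in the library labelled WT fraction 5/6 replicate 3. In FMR1 KO fraction 5/6 it had 0.673, 9.48 and 0.183, so that libraries of 1 group were far apart there as well. In low nuclease pellets it lay between 0.1025 and 0.2428 in all 6 libraries.

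The paralogs of the c-ring subunit gave different values. The 3 genes Atp5g1, Atp5g2 and Atp5g3 encode the same mature c-ring protein behind different import sequences. Atp5g3, with 98.5% unique coding words, had 140.5, 131.2 and 137.4 CPM in WT RNA-seq and 358.6, 330.2 and 231.8 in WT pellets (log2 1.27, edgeR's adjusted p = 6.43e-04). Atp5g1 went from 132.7, 114.5 and 102.6 to 21.0, 29.0 and 19.1 (log2 -2.24), and Atp5g2 from 51.8, 40.4 and 33.8 to 7.11, 6.56 and 7.28 (log2 -2.49). Neither of the latter has a unique coding word, so the difference between the 3 genes in footprints was not resolved by these counts.

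Several other complex IV genes are known as isoforms of particular tissues. The muscle forms Cox6a2 and Cox7a1 had 1.13 to 1.51 and 0.671 to 0.941 CPM in WT RNA-seq and at most 1.17 and 0.227 in WT pellets, while Cox6a1 and Cox7a2 had 67.0 to 86.7 and 57.0 to 77.3 in WT RNA-seq. Cox6a1 fell by 1.10 and Cox7a2 by 0.82 in WT occupancy, and Cox7a1 fell by 2.79. Cox6a2 did not pass the test (log2 -0.71, edgeR's adjusted p = 0.128). Cox6b1 fell by 0.85 and its testis paralog Cox6b2, at 2.92 to 3.77 CPM in WT RNA-seq, by 1.88. Cox4i2 stood at 0.290 to 0.431 in WT RNA-seq and did not pass the test (log2 0.68, edgeR's adjusted p = 0.161). Ndufa4 rose by 0.42 in WT mice (adjusted p = 0.0449 by the same test) with overlapping libraries, and in FMR1 KO mice it did not pass (log2 0.33, edgeR's adjusted p = 0.105). Its paralog Ndufa4l2, at 1.32 to 1.41 CPM in WT RNA-seq, fell by 1.28 in WT mice. Cox8b is no member, since the count table as used here does not list it.

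Members with longer coding sequences had higher occupancy. Among 25 members under 100 codons 2 rose and 20 fell in WT mice, among 39 of 100 to under 200 codons 8 rose and 14 fell, among 11 of 200 to under 400 codons 8 rose and 1 fell, and among 9 of 400 codons or more 8 rose and 1 fell. Of the other genes in these classes 10.6%, 9.3%, 23.4% and 40.2% rose and 64.8%, 60.2%, 41.4% and 24.1% fell. The exception among the longest was Ndufv3, an accessory complex I subunit, which fell by 0.91 (50.0, 41.6 and 36.5 CPM in WT RNA-seq against 22.2, 23.0 and 18.5 in WT pellets). The Spearman correlation between codons and log2 occupancy was 0.679 over 84 members and 0.366 over 16089 other genes in WT mice, and 0.689 and 0.365 in FMR1 KO mice. These correlations are across genes, which share the same libraries and are not independent replicates.

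The medians were then set side by side within length classes. In WT mice the members' median log2 occupancy was -1.12 against -1.34 for other genes under 100 codons, -0.13 against -1.10 from 100 to under 200, 0.92 against -0.43 from 200 to under 400, and 1.61 against 0.27 at 400 codons or more. The FMR1 KO pairs were -1.32 and -1.38, -0.28 and -1.07, 1.05 and -0.40, and 1.56 and 0.31. With only genes of at least 90% unique coding words the WT pairs were -1.12 and -1.13 (11 members), 0.27 and -0.87 (17), 1.13 and -0.38 (7), and 1.61 and 0.30 (9). No test of members against other genes was made.

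**Figure D2:**
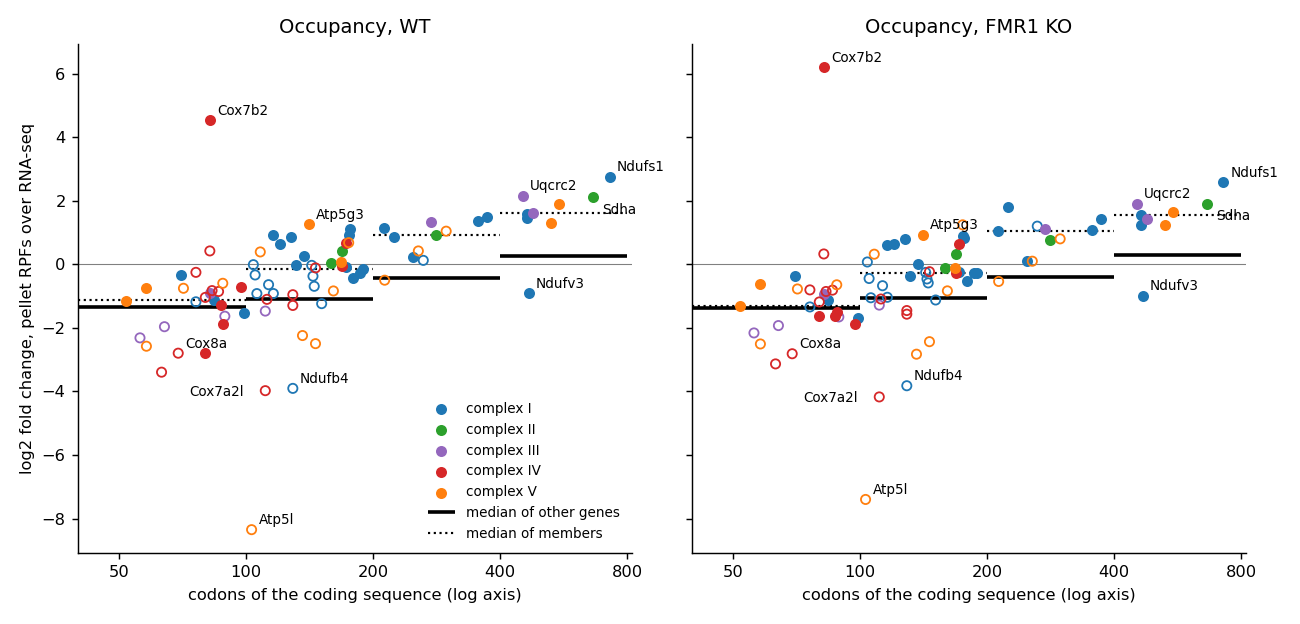
Log2 occupancy (pellet RPFs over RNA-seq, vertical axis) of the 84 tested members against the codons of the coding sequence (horizontal log axis), in WT and FMR1 KO mice. Points are members coloured by complex, open where fewer than 90% of the coding 30 nt words are unique; solid lines are medians of other genes and dotted lines medians of members in each length class, 1.61 against 0.27 for the longest class in WT mice.

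Footprints come from the coding part of an mRNA and RNA-seq fragments from all of it, so the share of the transcript that is coding enters occupancy. This share was higher in members than in other genes of the same class: medians of 44.9% against 33% under 100 codons, 60.3% against 41.1%, 74.3% against 47.8%, and 84% against 67.6% in the longest class. Dividing RPFs by coding and RNA-seq by transcript length, and subtracting the median of all genes, gave WT medians of -0.82 for members and -0.36 for other genes under 100 codons, -0.33 and -0.42 from 100 to under 200, 0.57 and -0.05 from 200 to under 400, and 0.97 and 0.12 at 400 or more. The FMR1 KO pairs were -0.98 and -0.33, -0.56 and -0.41, 0.69 and -0.07, and 0.93 and 0.11. On this scale the members' median lay below that of other genes under 100 codons in both genotypes, where it had lain above it without the division, and from 100 to under 200 codons it lay above in WT and below in FMR1 KO mice. The correlation with codons over members was then 0.513 in WT and 0.522 in FMR1 KO mice. On this scale Ndufs1 stood at 2.16, Sdha at 1.80 and Atp5g3 at 1.16 above the median gene, and Cox8a at -2.26, Uqcr10 at -1.66 and Ndufv3 at -1.59 in WT mice. This measure was added after the occupancies had been seen.

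Fraction 5/6, the lighter ribosome fraction, was compared with RNA-seq in the same way. In WT mice 28 members rose and 24 fell of 84, where 28.3% of all genes were higher and 27.6% lower (55.9% called). In FMR1 KO mice 36 rose and 22 fell of 84, where 29.7% of all genes were higher and 33.1% lower (62.8% called), and the members' median was 0.24 against -0.10. The WT median was -0.02 against 0.01. With library size alone, which shifted the median of all genes by -1.23 and -0.92, the counts were 4 rises and 55 falls in WT and 9 and 40 in FMR1 KO mice, where 5.72% of all genes rose and 59.2% fell in WT and 8.1% and 55.8% in FMR1 KO mice. Among called members whose libraries did not overlap, Ndufs1 (log2 2.34), Atp5a1 (2.19) and Uqcrc2 (2.12) rose most in WT mice, and Cox7b2 (5.30), Uqcrc2 (2.05) and Atp5a1 (1.98) in FMR1 KO mice. Atp5l, Cox7a2l and Ndufb4 fell most in WT mice (by 7.03, 4.06 and 3.35), and Atp5l, Cox7a2l and Cox7a1 in FMR1 KO mice (by 6.61, 3.50 and 2.97). Without the library labelled WT fraction 5/6 replicate 3, 56 members were called in WT mice, with 59.9% of all genes called. Occupancy and this comparison share their RNA-seq libraries.

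Enrichment, the level in the pellet over that in fraction 5/6, compares an mRNA's footprints in the heavier material with those in the lighter. In WT mice of the standard preparation none of 77 tested members passed edgeR's quasi-likelihood test, with 1 at an unadjusted p under 0.05 and none called by DESeq2, and over all genes 0.0228% were called (0.0152% higher, 0.00761% lower). With the library labelled WT fraction 5/6 replicate 3 left out, 3 members were called, where 9.48% of all genes were called. The members' median was -0.13, against -0.0014 over all genes.

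In FMR1 KO mice 1 member rose and 5 fell of 77, where 10.1% of all genes were higher and 1.39% lower (11.5% called). The members' median log2 enrichment was -0.44 against 0.01, and in 48 of the 77 every pellet library lay under every fraction 5/6 library, which held for 21.1% of all genes tested. Cox7b, a small complex IV subunit, had 31.03, 28.7 and 26.3 CPM in the pellets and 55.6, 39.6 and 61.3 in fraction 5/6, and fell by 0.77 (edgeR's adjusted p = 0.0409). Ndufb3 and Ndufa5, accessory subunits of complex I, fell by 0.70 and 0.56: Ndufb3 had 18.7, 19.9 and 15.4 in the pellets against 32.7, 26.3 and 34.5, and Ndufa5 37.4, 35.4 and 31.9 against 58.7, 48.0 and 57.4. Ndufa8 (by 0.53) and Ndufa3 (by 0.48) were the other falls, and Ndufs1 rose by 0.87, with 369.3, 305.7 and 349.5 in the pellets against 191.5, 219.4 and 186.1. These calls rested on single libraries: none was left without FMR1 KO pellet replicate 1 or 3 or fraction 5/6 replicate 1 or 3, 7 were found without pellet replicate 2 and 17 without fraction 5/6 replicate 2. The share of all genes called was 4 to 5.21% in the first 4 of these fits and 10.2 and 9.99% in the others. With the replicate number in the fit 0 members were called (6.42% of all genes), with library size alone 0 (1.29%) and by DESeq2 24 (15.6%).

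Enrichment was compared in the low nuclease preparation as well. In WT mice 2 members rose and 16 fell of 83, where 14.3% of all genes were higher and 8.58% lower (22.9% called). With library size alone 0 rose and 25 fell, where 10.1% of all genes were higher and 12.2% lower. Same-numbered pellet and fraction 5/6 libraries deviated together here, and once the number entered the fit as a replicate block 2 rose and 52 fell, where 18.9% of all genes were higher and 13.4% lower. In FMR1 KO mice 1 rose and 57 fell of 83, where 9.31% were higher and 10.7% lower (20% called). The members' medians were -0.54 against -0.02 in WT and -0.79 against -0.03 in FMR1 KO mice, and every pellet library lay under every fraction 5/6 library for 58 and 65 members, against 24 and 23.3% of all genes tested. By complex the FMR1 KO falls were 25 of 35 in complex I, 3 of 4 in complex II, 5 of 8 in complex III, 12 of 18 in complex IV and 12 of 18 in complex V.

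Small subunits showed the largest falls there. Uqcr11 of complex III had 2.99, 3.73 and 4.44 CPM in the FMR1 KO pellets and 8.48, 8.53 and 9.05 in fraction 5/6 (log2 -1.25 ± 0.18 SE, edgeR's adjusted p = 0.0149). Atp5k, the e subunit of ATP synthase, had 9.05, 9.135 and 15.2 against 27.9, 22.9 and 26.5 (by 1.24), and Cox8a 13.55, 16.8 and 20.3 against 38.0, 41.0 and 38.2 (by 1.24). None of these groups overlapped. Among called members whose libraries did not overlap, the largest falls in WT mice were Uqcrb (by 0.97; 7.001, 5.26 and 5.65 against 14.9, 10.9 and 9.53), Ndufb3 (by 0.92) and Atp5j (by 0.79). Ndufs1 rose in both genotypes, by 0.51 in WT (218.2, 241.4 and 216.1 in the pellets against 156.6, 181.0 and 138.3 in fraction 5/6) and by 0.92 in FMR1 KO mice (294.1, 233.3 and 236.3 against 129.5, 109.8 and 154.4). Of the coding words 41.5% were unique in Uqcr11, 52.9% in Atp5k, 50% in Ndufb3 and 9.12% in Uqcrb.

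Enrichment was lower for short than for long coding sequences in members and in other genes. In low nuclease FMR1 KO libraries the median was -1.002 in members and -0.59 in other genes under 100 codons, -0.79 and -0.51 from 100 to under 200, -0.43 and -0.24 from 200 to under 400, and 0.08 and 0.19 at 400 or more. Of the members 20 of 24, 31 of 39, 5 of 11 and 1 of 9 fell in these classes, and of other genes 38.4%, 35.8%, 14.6% and 2.4%. The Spearman correlation with codons was 0.741 over members and 0.594 over other genes. The count of falls rested on single libraries as well: 12 members were called without FMR1 KO pellet replicate 2, 1, 3 and 0 without fraction 5/6 replicate 1, 2 and 3, and 46 and 58 without pellet replicates 1 and 3, while the median stayed between -0.97 and -0.73. Of all genes 3.99% were called without pellet replicate 2, 2.81, 3.13 and 2.14% without fraction 5/6 replicate 1, 2 and 3, and 13.1 and 11.2% without pellet replicates 1 and 3. In WT mice 1, 1 and 0 members were called without pellet replicates 1, 2 and 3 and 4, 13 and 8 without fraction 5/6 replicates 1, 2 and 3, and the median lay between -0.63 and -0.39. The share of all genes called was 6.82, 10.3 and 6.23% and 8.57, 16.2 and 14.3% in the same order.

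**Figure D3:**
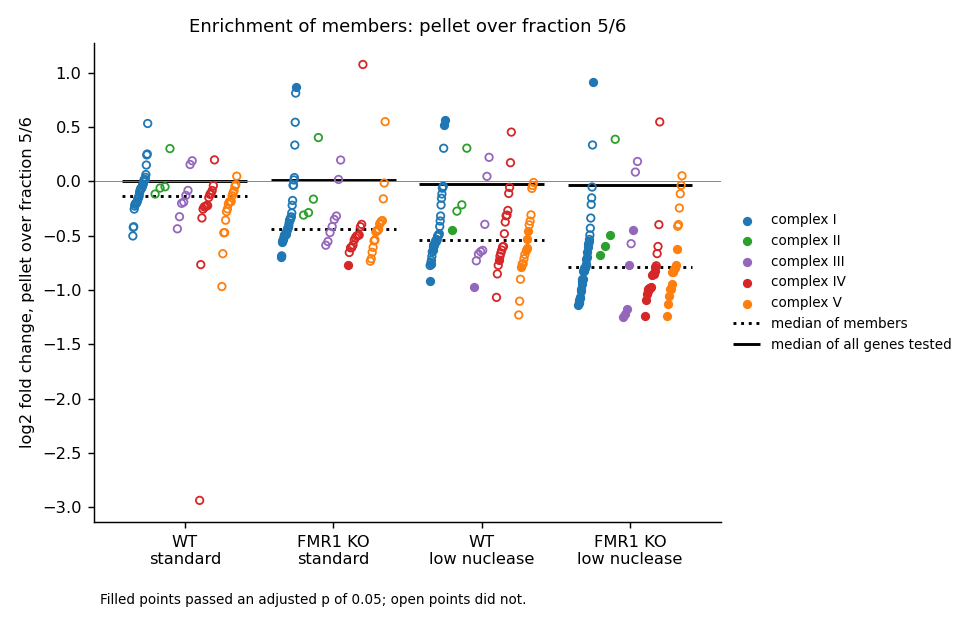
Log2 enrichment (pellet over fraction 5/6, vertical axis) of the tested members in each genotype and preparation. Points are members coloured by complex, filled where edgeR's adjusted p was under 0.05; dotted lines are the members' medians and solid lines those of all genes tested, -0.79 against -0.03 in low nuclease FMR1 KO libraries.

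No member passed the test between the genotypes in the standard preparation. In RNA-seq 0 of 84 passed edgeR's test (0.0735% of all genes called, 0.0306% higher and 0.0429% lower), in the pellet 0 of 76 (0.0152%) and in fraction 5/6 0 of 78 (0%). At an unadjusted p under 0.05 stood 0, 0 and 1 of the members, and 2.59%, 5.34% and 4.56% of all genes. The members' medians were -0.04, -0.07 and 0.21 for FMR1 KO against WT, and 62 of the 78 fraction 5/6 values lay above 0, as did 48.1% of those of all genes. For occupancy between genotypes 0 of 84 passed the interaction test (0.0669% of all genes called, 0.0487% higher and 0.0183% lower), and for enrichment 0 of 78 (0%). At an unadjusted p under 0.05 stood 1 and 2 members, and 6.12% and 5.56% of all genes. The enrichment difference had a median of -0.27 over members and 0.02 over all genes. The library labelled WT fraction 5/6 replicate 3 enters the fraction 5/6 and enrichment comparisons, and without it 0 members were called in either. The medians above include it. With it and FMR1 KO pellet replicate 2 left out, the median of the enrichment difference was -0.19, with 0 of 80 members called. DESeq2 called 0 members in these 5 comparisons, and 0.147%, 0.729%, 0.618%, 0.383% and 0.298% of all genes. A test that misses the threshold does not show equal levels: the median SE of the members' log2 differences was 0.13 in RNA-seq, 0.17 in the pellet and 0.24 in fraction 5/6.

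In the low nuclease preparation 0 members passed edgeR's test between the genotypes as well: 0 of 84 in RNA-seq, 0 of 82 in the pellet (0.0197% of all genes called), 0 of 84 in fraction 5/6 (0.0445%), 0 of 83 for occupancy (0.0187%) and 0 of 84 for enrichment (0.0188%). At an unadjusted p under 0.05 stood 2, 0, 11, 2 and 6 of the members, and 2.2%, 4.34%, 8.55%, 2.64% and 8.48% of all genes, in the same order. The fraction 5/6 median was 0.15 and the enrichment median -0.22 against -0.05 over all genes. The members' median of FMR1 KO against WT lay above 0 in fraction 5/6 and below 0 in enrichment in both preparations, with no member called. The standard medians include the library labelled WT fraction 5/6 replicate 3.

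Occupancy in the low nuclease preparation was read beside RNA-seq in which the 3 libraries named above are dominated by few genes. There 29 members rose and 11 fell of 83 in WT mice (26.6% of all genes higher, 25.5% lower, 52.1% called), and 20 rose and 9 fell of 82 in FMR1 KO mice (16.1% higher, 12.8% lower, 28.9% called). The medians were 0.33 against -0.02 over all genes in WT and 0.17 against -0.04 in FMR1 KO mice. Against RNA-seq, fraction 5/6 had 41 rises and 5 falls of 84 in WT (27.6% higher, 29.6% lower, 57.2% called) and 37 and 5 of 83 in FMR1 KO mice (17.2% higher, 17% lower, 34.3% called). Members whose standard call turned in sign include Cox7a2, which had 14.3, 13.5 and 18.6 CPM in low nuclease WT RNA-seq against 77.3, 57.0 and 61.9 in the standard WT RNA-seq, and Cox7b.

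The preparations were then compared directly, within a genotype and a material. In WT pellets 16 members were higher and 1 lower in the standard preparation of 80 tested, where 15% of all genes were higher and 24% lower (39% called). In FMR1 KO pellets 9 were higher and 0 lower of 79 (7.42% and 9.53%, 17% called). The members' medians were 0.22 against -0.04 and 0.21 against -0.02. In fraction 5/6 1 was higher and 1 lower of 81 in WT (2.94% and 6.76%, 9.69% called) and 7 higher and 6 lower of 82 in FMR1 KO mice (10% and 10.9%, 20.9% called), with medians of -0.09 and -0.02. With library size alone, which shifted the median of all genes by -0.52 and -0.50 in pellets and -0.71 and -0.43 in fraction 5/6, the calls were 0 higher and 8 lower, 1 and 6, 0 and 27, and 0 and 3 in the same order. Of all genes 2.03% were then higher and 48.9% lower in WT pellets, 2% and 25% in FMR1 KO pellets, 2.31% and 33.7% in WT fraction 5/6, and 1.46% and 13% in FMR1 KO fraction 5/6. The counts also rested on single libraries. In WT pellets 5 and 11 were called without standard replicates 1 and 2, and 10, 10 and 6 without low nuclease replicates 1, 2 and 3. In FMR1 KO pellets 2, 1 and 4 were called without standard replicates 1, 2 and 3, and 1 and 2 without low nuclease replicates 2 and 3. In WT fraction 5/6 0, 0 and 5 were called without standard replicates 1, 2 and 3, and 1, 0 and 0 without low nuclease replicates 1, 2 and 3. In FMR1 KO fraction 5/6 0 were called without standard replicate 1 or 2 or low nuclease replicate 3, and 8 and 1 without low nuclease replicates 1 and 2. The share of all genes called moved as well with 1 library left out, from 16.4 to 39.8% in WT pellets, 3.21 to 31.4% in FMR1 KO pellets, 0.761 to 13.5% in WT fraction 5/6 and 1.99 to 27.2% in FMR1 KO fraction 5/6.

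Uqcr11 was higher in the standard preparation in all 4 comparisons. It had 8.77, 11.2 and 7.39 CPM in standard WT pellets against 4.99, 2.82 and 4.45 in low nuclease ones, a log2 difference of 1.10, and the differences were 1.27 in FMR1 KO pellets, 0.91 in WT and 0.65 in FMR1 KO fraction 5/6. Ndufs5, a complex I subunit, was higher by 0.89 and Atp5g3 by 0.85 in WT pellets. Ndufs3, a core subunit of the complex I arm that faces the matrix, with 32.4% unique coding words, was lower by 1.14 in WT pellets (33.0, 46.1 and 32.4 against 78.7, 77.8 and 79.4) and by 1.04 in FMR1 KO fraction 5/6. In FMR1 KO pellets 1 library, replicate 3, had 179.2 CPM of Ndufs3 beside 34.8 and 39.25. Cox7b2 was higher by 4.97 and the second Atp5o listing by 1.27 in standard FMR1 KO pellets, the latter on exons that Atp5o and Donson overlap in full, so that its counts are uncertain. Cox7a2l was lower in standard fraction 5/6, by 0.89 in WT and 0.78 in FMR1 KO mice, where Ndufc1 was also lower (by 0.65) and Cox7c (1.09) and Ndufa12 (0.59) were higher.

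**Figure D4:**
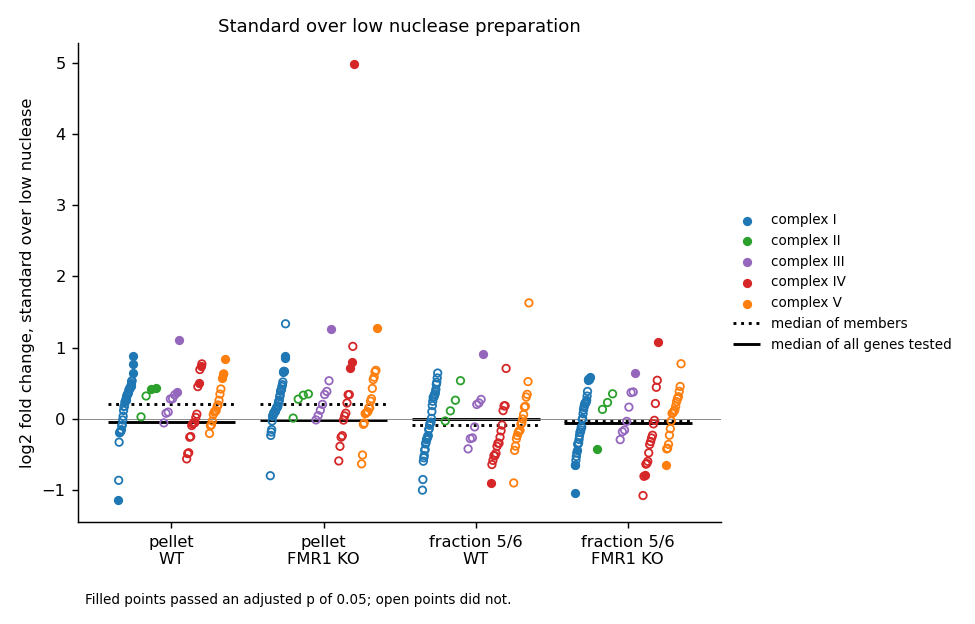
Log2 difference of each tested member between the standard and the low nuclease preparation (vertical axis, positive where the standard level was higher) for the pellet and fraction 5/6 of each genotype. Points are members coloured by complex, filled where edgeR's adjusted p was under 0.05; dotted and solid lines are the medians of members and of all genes tested, 0.22 and -0.04 in WT pellets.

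The study also deposited peaks of footprint coverage, called in each standard RPF library. Members held 140 to 203 peaks in each of the 12 libraries, 0.384 to 1.43% of all peaks there, and 76 members had at least 1. By group 97.9 to 99% of member peaks lay in the coding sequence. A peak was taken as found again where its middle lay within 6 nt of one in another library. By this count 17 of 140 peaks of WT pellet replicate 1 were found in all 3 WT pellets, 15 of 172 in FMR1 KO pellets, 12 of 152 in WT fraction 5/6 and 17 of 203 in FMR1 KO fraction 5/6. These shares were 12.1, 8.72, 7.89 and 8.37%, and over all deposited peaks of the same libraries 5.27, 4.77, 3.55 and 6.95% were found again. Member peaks were also taller, with medians of 18 to 36 against 14 to 16 over all peaks of a library. The rate of matches by chance was not estimated. The WT fraction 5/6 count needs the library labelled WT fraction 5/6 replicate 3. With replicate 3 left out of each group, 44, 54, 42 and 56 were found in both others, in the same order. The member peaks found again fell in 13, 10, 11 and 14 members. Atp5pb, Cox7c and Ndufa12 were among them in all 4 groups. In WT pellets the others were Atp5b, Atp5j2, the second Atp5o listing, Cox7a2, Cox7b, Ndufa5, Ndufb11, Ndufs3, Ndufv1 and Sdhc, and in FMR1 KO pellets Atp5md, Cox5b, Cox6a1, Cox8a, Ndufb3, Ndufv1 and Sdhc. Atp5g1, Atp5h, Atp5j, Cox6c, Ndufa7, Ndufa13, Uqcr11 and Uqcrb had such peaks in fraction 5/6 and not in the pellets. Sdhc, a membrane anchor of complex II, had 8 to 11 peaks in every library, 114 in all.

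A few positions returned in nearly every library. Those in Atp5pb and Ndufb11 are shown as the 27 nt around the peak's middle, 5′ to 3′ on the coding strand, with the codon at the middle in capitals.
Atp5pb codon 213: cgcaaggaggaaGAAcacatgatagac
Atp5pb codon 232: tctgtacagcagGAAaaggagaccatt
Ndufb11 codon 83: gtggtggacgtcTGGaatatgcgagct
Atp5pb (Atp5f1 in GENCODE M21), the b subunit of the stalk that holds the ATP synthase head, had a peak at codon 213 of 257 (stop codon included) in all 12 libraries, at chr3:105943729-105943755 on the minus strand of GRCm38 in a coding exon. Its heights, which were not scaled between libraries, were 117, 73 and 80 in WT pellets, 90, 65 and 61 in FMR1 KO pellets, 143, 55 and 55 in WT fraction 5/6 and 62, 91 and 26 in FMR1 KO fraction 5/6. Its second peak in all 12 libraries, at codon 232, crosses an exon junction between chr3 positions 105943049 and 105943698, with 127, 61 and 64 in WT and 107, 54 and 71 in FMR1 KO pellets. Both middle codons were GAA. The spliced stretch at codon 232 has 1 exact copy in the genome outside these exons, and only 37.1% of the coding words of Atp5pb are unique.

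Cox7c had its peak at codon 26 of 64 in all 12 libraries, across an exon junction, with heights of 73, 56 and 33 in WT pellets and 159, 51 and 31 in WT fraction 5/6. The stretch has 2 exact copies in the genome. Ndufb11, an accessory complex I subunit, had its peak at codon 83 of 152 (chrX:20615785-20615811, minus strand, in a coding exon) in 11 libraries, with 30, 26 and 18 in WT pellets and 38 and 15 in the FMR1 KO pellets in which it was found. Heights in pellets and fraction 5/6 overlapped at each of these positions. No test was run on peaks.

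**Figure D5:**
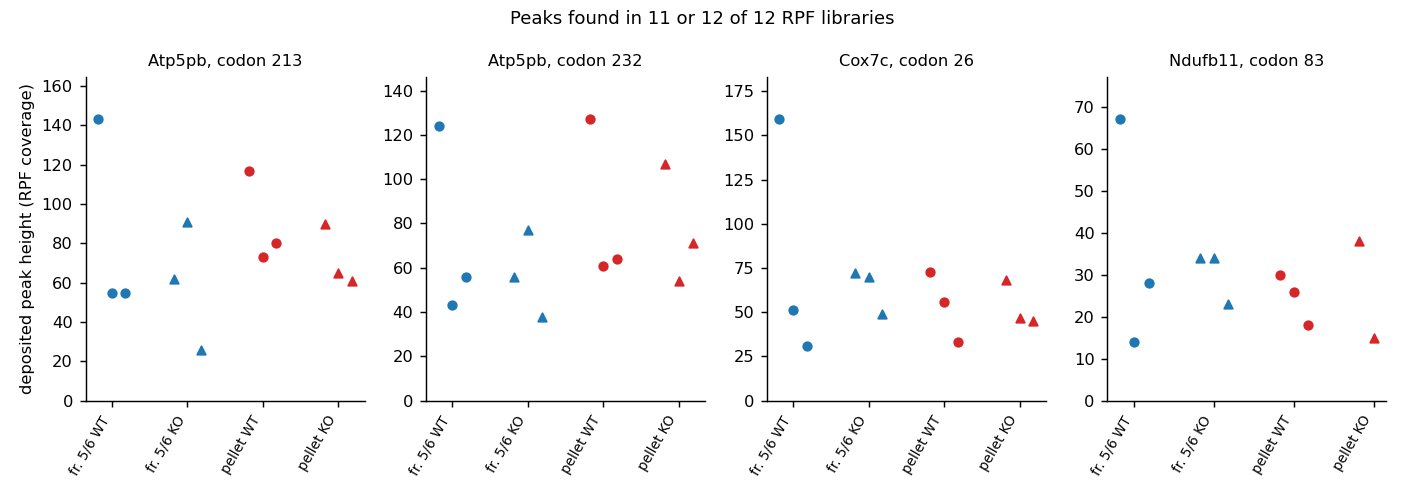
Deposited peak height (RPF coverage, vertical axes start at 0) at the 4 positions found in 11 or 12 of the 12 standard RPF libraries. Points are libraries (circles WT, triangles FMR1 KO; blue fraction 5/6, red pellet); at Atp5pb codon 213 heights run from 26 to 143 and the groups overlap.

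Other genes of mitochondrial energy metabolism were read from the same fits. Of the 13 citric acid cycle enzymes 12 rose and 1 fell in WT occupancy, with a median of 1.56 where 31.1% of all genes were higher and 34.2% lower, and 12 and 1 in FMR1 KO mice, with 1.30. Dld, the shared E3 subunit of the dehydrogenase complexes, rose by 2.53, fumarase Fh1 by 2.27 and the succinyl-CoA ligase subunit Sucla2 by 2.09 in WT mice, and Suclg2 fell by 1.26. Of 5 electron carriers outside the complexes or outside the naming rule 4 rose, among them Etfdh (1.598) and cytochrome c1, Cyc1 (0.79), and cytochrome c itself, Cycs, fell by 1.64. Among 42 assembly factors 11 rose and 16 fell with a median of -0.24, Cox15 (3.42), Ndufaf1 (2.07) and Acad9 (1.80) rising most and the lowest value at -3.44. Among 19 genes of protein import 6 rose and 10 fell with a median of -1.11, from Hspa9, the matrix Hsp70 (2.17), to Tomm20 (by 4.58) and Timm23 (by 3.98). Shares of unique coding words were not read for these lists, so falls of genes with copies in the genome are uncertain. Of 13 mitochondrially encoded subunits 11 were tested, and all 11 fell, between log2 -10.62 and -7.33, in WT mice. They are made on mitochondrial ribosomes, so these falls were not read as low translation.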

How the data were processed

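Whole counts per gene were deposited for 36 libraries. Per the study's methods and processing notes, the authors trimmed reads with Cutadapt 2.10, removed rRNA and ncRNA reads with Bowtie2 2.3.5, aligned to GRCm38 with STAR 2.7.8a, marked duplicates with Picard, removed them with SAMtools 1.19.2 and counted with featureCounts 2.2.0. The barcodes mark samples, not molecules. Some members exceeded 1 count per exonic nt (up to 10.4 in standard and 40.9 in low nuclease RPF libraries, Atp5a1), and how duplicates were recognized is not given in the sources used here. The deposited peaks carry heights in RPF coverage (signal), and the authors' comparisons were not used.

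Cdk8 was left out before library sizes, and genes coding for protein in GENCODE M21 were kept, so that the lncRNA Ndufb1-ps was not tested. Each comparison was fitted over all genes that passed filterByExpr in the groups compared, with edgeR 4.0.16 (TMM, glmQLFit, glmQLFTest, R 4.3.3) and Benjamini-Hochberg adjustment over them at 0.05, and the members were read from that fit. DESeq2 1.42.0 was an alternative. Same-numbered libraries were checked for deviating together from their group means. They did in low nuclease enrichment in WT mice (correlations of 0.205, 0.108 and 0.216), where the pairing was read from the data and not from the labels. On simulated counts the fits were checked for recovery of known changes. Unique 30 nt words, windows and coordinates came from GRCm38 with Python 3.11.15 and numba 0.67.0. Named were the 3 largest rises and falls per comparison among called members whose libraries did not overlap, the 5 highest and 5 lowest RPKM, catalytic subunits, paralog sets and members with recurrent peaks. The members, lists and rules were chosen with earlier results of these data known. Some items are not reported here.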

Additional observations from a re-analysis of the deposited data

How the results depend on the processing

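The alternatives were DESeq2, scaling by library size alone, Cdk8 kept, genes with at least 1 count in any library, all biotypes kept, the replicate number as a block, the low nuclease preparation, and each library left out. For the 5 comparisons between genotypes 0 members were called under each of them. DESeq2 called 24 members for enrichment in FMR1 KO mice, 27 and 19 for the preparations in WT and FMR1 KO pellets, 10 and 24 in fraction 5/6, and 50 for low nuclease enrichment in WT mice, where it called 15.6%, 46%, 29.2%, 24.1%, 31.2% and 31.7% of all genes. Library size alone gave 0 for enrichment in FMR1 KO mice (1.29% of all genes called), 8 for the preparations in WT pellets and 27 and 3 in fraction 5/6, and with Cdk8 kept 10 members were called for enrichment in FMR1 KO mice (11.4% of all genes). Library size alone also shifted the median of all genes by -0.35 for enrichment in FMR1 KO mice, by 0.29 for fraction 5/6 between genotypes and by -0.31 for the enrichment difference. In the low nuclease preparation 40 and 29 members were called for occupancy in WT and FMR1 KO mice and 18 and 58 for enrichment. The causes of these moves were not tested.

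In 1 of 22 comparisons, low nuclease enrichment in WT mice, every same-numbered pair correlated above 0.1 in its deviations from the group means. In the other 21 at least 1 pair did not exceed 0.1, which does not show that the libraries are unpaired. The labels do not say which libraries came from the same brains. In low nuclease FMR1 KO enrichment the correlations were 0.356, 0.133 and 0.0396. For low nuclease fraction 5/6 against RNA-seq in WT mice all 6 libraries lay closest to their own number. With the replicate block the calls went from 6 to 0 for enrichment in FMR1 KO mice, from 17 to 8 and from 9 to 1 for the preparations in WT and FMR1 KO pellets, from 2 to 0 and from 13 to 1 in fraction 5/6, and from 18 to 54 for low nuclease enrichment in WT mice. Of all genes 6.42%, 34.2%, 5.39%, 2.61%, 2.84% and 32.2% were then called, in the same order. In the other fits in which it was run the block left the counts within 1.5 times. Of the comparisons within the low nuclease preparation it was run only for enrichment within a genotype.

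With each library left out in turn the counts ran from 55 to 63 and 59 to 68 for occupancy in WT and FMR1 KO mice, 40 to 56 and 50 to 59 for fraction 5/6 against RNA-seq, 0 to 3 and 0 to 17 for enrichment, 0 to 13 and 0 to 58 for low nuclease enrichment, 5 to 22 and 1 to 10 for the preparations in pellets, and 0 to 5 and 0 to 16 in fraction 5/6. Of all genes 57.8 to 65.3% and 61.4 to 67.2% were called in these fits for occupancy, 47.7 to 59.9% and 57.2 to 64.4% for fraction 5/6 against RNA-seq, 0 to 9.48% and 4 to 10.2% for enrichment and 6.23 to 16.2% and 2.14 to 13.1% for low nuclease enrichment. With a replicate left out of each group 135 to 196 peaks were found in both others, where 61 were found in all 3. Matching within 3 nt gave 34 and within 12 nt 146, and peaks of at least their library's median height gave 46.

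The values of named members that were called were also followed under these alternatives. Of these values 2312 stayed on their side of the threshold, 587 passed it no longer and 26 turned in sign. The 26 were all in the low nuclease preparation. Called members that the naming rule left out are not in this tally. Values under library size alone were read here after its shift of the median of all genes was subtracted. Before that, and over all called members, it turned the sign of 13 and 12 calls for occupancy in WT and FMR1 KO mice. It turned 10 and 10 for fraction 5/6 against RNA-seq and 8 for the preparations in WT pellets. Among the named members, the low nuclease turns for occupancy in WT mice were Ndufa5 (-0.32), Cox7b (0.99), Cox7a2 (1.37), Ndufc1 (0.43) and the second Atp5o listing (-0.24). In FMR1 KO mice they were Ndufa5 (-0.74), Ndufb11 (0.26), Cox7b (0.49), Cox7a2 (0.81), Ndufa13 (0.056), Ndufc1 (0.64), Ndufa7 (0.61) and Atp5o (-0.42). For fraction 5/6 against RNA-seq they were Ndufb11 (0.29), Cox7b (1.68), Ndufc1 (1.204), Ndufa7 (1.03), Cox5b (0.020), Atp5md (0.22) and Atp5o (-0.17) in WT mice, and Atp5g1 (0.31), Ndufb11 (1.07), Cox8a (0.013), Ndufc1 (1.65), Cox5b (0.26) and Atp5o (-0.37) in FMR1 KO mice. The low nuclease RNA-seq libraries with most counts on 10 genes enter all of these. In the standard pellet comparison between genotypes 76 of 84 members passed the filter on low counts, and the others were not tested there.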

Other observations

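Read beside the members' enrichment in low nuclease FMR1 KO libraries, the other mitochondrial lists gave the following counts. Of 13 citric acid cycle enzymes 3 rose and 1 fell with a median log2 enrichment of 0.10, of 42 assembly factors none rose and 11 fell with a median of -0.36, and of 19 genes of protein import 1 rose and 7 fell with a median of -0.49. Over all genes tested 9.31% rose and 10.7% fell. In WT mice of that preparation 2 rose and 1 fell, 0 rose and 3 fell, and 2 rose and 3 fell in the same order. There 14.3% of all genes rose and 8.58% fell. With 1 library left out fewer genes were called in these fits, as given above, and the lists were not counted there. In the comparison of the preparations in WT pellets 7 of the 13 citric acid cycle enzymes were higher and 1 lower in the standard preparation, with a median of 0.30, and all 7 tested mitochondrially encoded subunits were lower, with a median of -3.08, where 15% of all genes were higher and 24% lower. In FMR1 KO pellets 0 of the 13 enzymes were higher and 1 lower, with a median of 0.18, and 1 of 6 tested mitochondrially encoded subunits was lower, with a median of -2.29, where 7.42% of all genes were higher and 9.53% lower. The difference between the genotypes was not tested for these lists. Calls are those of edgeR after adjustment over all genes, and the lists were not tested as sets.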
